A study of Homo sapiens with 12 samples.

Results

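Alpha-tubulin and beta-tubulin are the paired proteins that build microtubules, and human cells make each of them from several genes, called isotypes. The 10 isotype genes described here were chosen by name as rows of the count table, 4 alpha genes (TUBA1A, TUBA1B, TUBA1C and TUBA4A) and 6 beta genes (TUBB, TUBB2A, TUBB2B, TUBB3, TUBB4B and TUBB6), out of 59385 gene names. They were measured in HEK293T, an established human embryonic kidney cell line that carried a Dox-inducible short hairpin RNA, either a non-silencing control (shCtrl) or one against PRRC2B (shPRRC2B), an RNA-binding protein. Both lines were induced for 36 h. Each line was 1 stable single clone selected with puromycin, so that the effect of the hairpin and a difference between the clones cannot be told apart. From each line, total RNA and the RNA of the polysome fractions (mRNA carrying several ribosomes) were taken in 3 biological replicates, were enriched for polyadenylated RNA and were sequenced as read pairs, which gave 4 groups and 12 libraries.

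The library totals lay between 9855734 and 20837542 counts, and replicates of a group correlated at 0.974 to 0.996 on log2(CPM + 1). PRRC2B was at 258 to 313 CPM (read pairs scaled to library size by the TMM method) in the shCtrl total libraries and at 97.9 to 103 CPM in the shPRRC2B total libraries. In polysome RNA it was at 12.9 to 21.1 CPM in shCtrl and at 5.14 to 9.03 CPM in shPRRC2B. It was lower in shPRRC2B by a log2 change of -1.49 in total RNA (SE 0.17, adjusted p = 4.25e-06, edgeR quasi-likelihood test) and of -1.33 in polysome RNA (SE 0.20, adjusted p = 5.03e-05). All 7 genes taken as markers of this line were detected. The markers of blood (PTPRC), endothelium (PECAM1, CDH5) and liver (ALB) had at most 6 counts in any library. The line markers themselves differed between the lines. In total RNA the keratin KRT8 (log2 change -2.13) and the neurofilaments NEFM (-1.57) and NEFL (0.499 times the shCtrl level) were called lower in shPRRC2B and VIM (0.96) was called higher, as was COL1A1 (0.89), a fibroblast marker at 14.6 to 19.3 CPM in shCtrl and 30.4 to 34.0 CPM in shPRRC2B. The part of these differences in those of the tubulin genes was not tested.

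Cells hold the amount of tubulin in a narrow range by destroying tubulin mRNA while it is being translated. When free tubulin is in excess, the factor TTC5 recognises the first amino acids of a tubulin chain as they leave the ribosome, and with the adaptor SCAPER it recruits the CCR4-NOT complex, which removes the poly(A) tail. The recognised start of the chain is methionine, arginine and glutamate, followed by cysteine in alpha-tubulin or isoleucine in beta-tubulin, so it is set by the first codons of these mRNAs.

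The first coding bases are shown for 5 of the isotypes because they encode this signal, with the first 12 bases, from the start codon on, in capitals. They were read from the GENCODE 44 transcripts on GRCh38, where each of the 10 genes has 4 exons in its canonical transcript and its start codon in exon 1. The start codon of TUBA1A is at chr12:49188977-49188979 on the minus strand, that of TUBA4A at chr2:219253856-219253858 on the minus strand and that of TUBB2A at chr6:3157461-3157463 on the minus strand. Those of TUBB4B and TUBB6 are on the plus strand, at chr9:137241361-137241363 and chr18:12308293-12308295.
TUBA1A: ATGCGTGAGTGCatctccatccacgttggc
TUBA4A: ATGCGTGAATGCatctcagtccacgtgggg
TUBB2A: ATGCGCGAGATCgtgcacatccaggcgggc
TUBB4B: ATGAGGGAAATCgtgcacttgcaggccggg
TUBB6: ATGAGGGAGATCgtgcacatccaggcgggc

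TUBA1B and TUBA1C begin with the same 30 coding bases as TUBA1A, so these 3 genes cannot be told apart at their start.

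The likeness of these genes bears on what the counts can hold, because the counting options given by the authors leave out read pairs that map to more than 1 place. The coding sequences of TUBA1A and TUBA1B were identical at 97.2% of aligned bases, those of TUBA1B and TUBA1C at 96.8%, and those of TUBB2A and TUBB2B at 98.1%. TUBA4A matched the other alpha genes at 84.4% to 85.7%. Of all stretches of 75 bases in the canonical transcript, those found nowhere else in the genome made up 68.3% in TUBA1A, 51.6% in TUBA1B, 81.9% in TUBA1C, 41.4% in TUBB2A and 47.9% in TUBB2B. In TUBA4A and TUBB6 they made up 100%, in TUBB4B 94.4% and in TUBB3 93.2%. The levels of TUBA1A, TUBA1B, TUBB2A and TUBB2B are therefore uncertain to the extent that pairs from shared stretches were lost or assigned between copies.

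Overlapping genes add a further limit. In GENCODE 44 the exons of TUBB3 lie for 92.8% of their bases under a readthrough gene of the same strand, those of TUBA1B for 72.6% under the antisense gene TUBA1B-AS1, those of TUBA4A for 30.6% under STK16 and those of TUBA1C for 23.6% under an antisense gene. The counting options given by the authors name no strand and do not let a pair count for 2 genes, so that pairs which fit both genes equally well are left out, whichever gene they came from. The levels of these 4 genes may be understated to that extent, which was not tested.

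TUBB, a beta-tubulin gene that dividing cells are known to express strongly, was listed at 0 to 2 counts in the 12 libraries and could not be tested. Its value was 0 in 10 libraries and 1 and 2 counts in the shCtrl total replicates 1 and 2. It lies at chr6:30717435-30725538 on the plus strand. Of its 75-base stretches, 91.3% occur on 7 further sequences of the genome file that are not main chromosomes, and 5.82% occur nowhere else.

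The genes beside TUBB had a like lack of counts. Of 137 other protein-coding genes that start within 2 Mb of TUBB, 108 (78.8%) stayed under 10 counts in every library and 82 had no count at all, against 204 of 869 (23.5%) on the rest of chromosome 6. The window was chosen after the values had been seen. ATAT1, the enzyme that acetylates alpha-tubulin, lies in this window and was listed at 0 in all 12 libraries. PFDN6, a prefoldin subunit outside the window, reached 1 count. HLA-C, inside the window, had 1112 to 3181 counts. Whether the authors' genome index held these further sequences is not given in the sources used here, and their part in the missing counts was not tested.

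**Figure D1:**
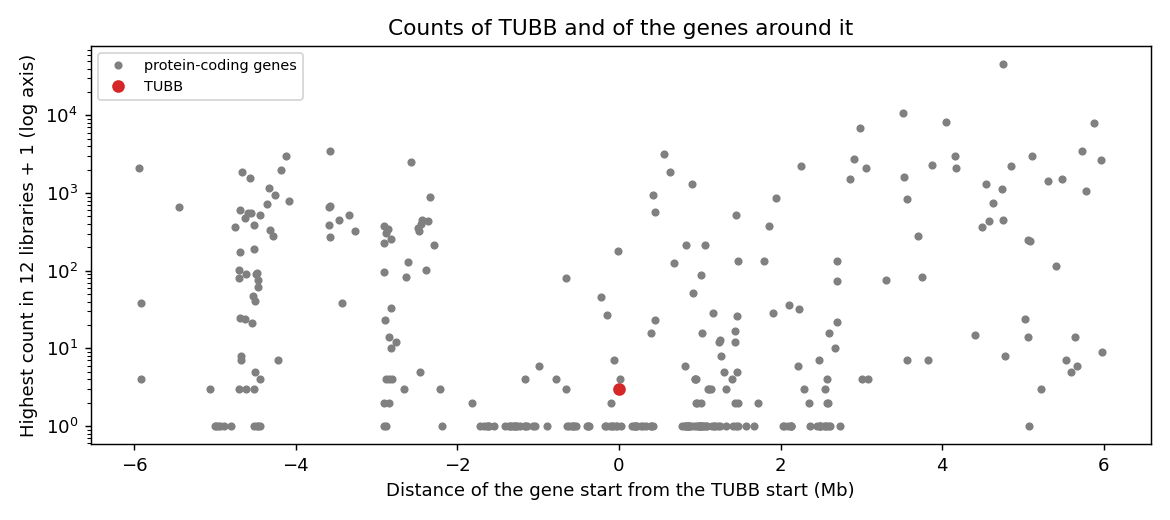
Highest count over the 12 libraries plus 1 (log axis) for TUBB and each protein-coding gene around it, by the distance of the gene start from the TUBB start in Mb. Within 2 Mb of TUBB, 108 of 137 other genes lie under 10 counts.

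The levels of the isotypes were compared per kb of canonical transcript, since read pairs rise with length. In shCtrl total RNA the highest was TUBA1B with 316 ± 23.9 CPM per kb (SD, n = 3), followed by TUBB4B with 146 ± 3.53. TUBA1A had 42.8 ± 1.37 and TUBA1C 40.9 ± 1.83 CPM per kb, and their ranges overlapped. TUBB2B (24.0 ± 2.46) and TUBB6 (22.6 ± 1.28) also overlapped, while TUBB2A was below both with 13.9 ± 3.55 CPM per kb. TUBA4A had 2.21 ± 0.0924 and TUBB3, the neuronal beta-tubulin, 0.322 ± 0.147 CPM per kb. A single alpha gene and, among the 5 beta genes other than TUBB, a single beta gene thus held most of the level counted for their families.

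**Figure D2:**
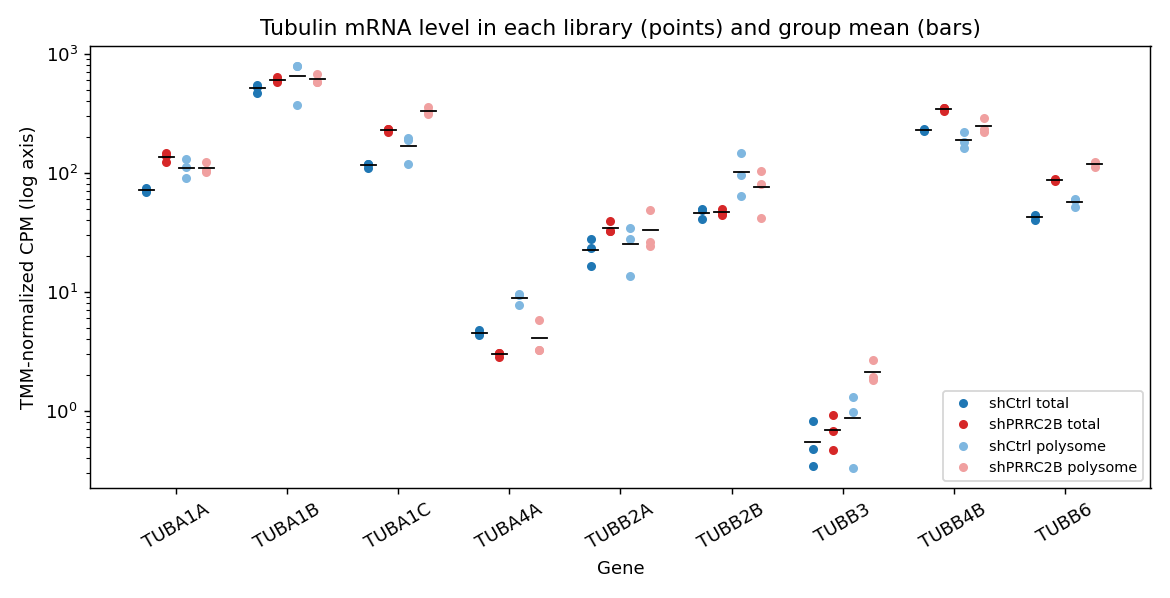
TMM-normalized CPM (log axis) of 9 tubulin genes, with 1 point per library and a bar at the mean of each group of 3. TUBB, at 0 to 2 counts, is left out. In total RNA the shPRRC2B points of TUBA1A, TUBA1C, TUBB4B and TUBB6 all lie above the shCtrl points.

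Total RNA was compared between the lines to see which tubulin mRNAs changed in amount after PRRC2B knockdown. Called here means an adjusted p under 0.05 over all 18166 genes tested and a log2 change beyond 0.5 either way. Of the 9 tubulin genes tested, 4 were higher in shPRRC2B (TUBA1A, TUBA1C, TUBB4B and TUBB6) and 0 were lower. Over all genes tested, 14.9% were called higher and 14.1% lower. The median log2 change of the 9 genes was 0.59, against 0.04 over all genes tested.

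TUBA1A, an alpha isotype best known from developing neurons, was at 71.1, 74.1 and 69.6 CPM in shCtrl total RNA and at 124, 146 and 137 CPM in shPRRC2B. All 3 shPRRC2B libraries were above all 3 shCtrl libraries, by a log2 change of 0.93 (SE 0.14, adjusted p = 7.11e-05). TUBA1C, an alpha isotype common in dividing cells, was at 119, 118 and 110 CPM in shCtrl and at 233, 235 and 219 CPM in shPRRC2B. The groups were again apart, by a log2 change of 0.99 (SE 0.15, adjusted p = 0.000121). As folds, total RNA in the knockdown line was at 1.90 times the shCtrl level for TUBA1A and at 1.98 times for TUBA1C.

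Among the beta genes, TUBB6 was at 43.2, 44.5 and 39.8 CPM in shCtrl total RNA and at 88.2, 85.9 and 87.4 CPM in shPRRC2B. This was a log2 change of 1.04 (SE 0.11, adjusted p = 3.00e-06), the largest of the 9 genes in total RNA. TUBB4B, a broadly expressed beta isotype, was at 234, 228 and 223 CPM in shCtrl and at 353, 349 and 330 CPM in shPRRC2B, a log2 change of 0.59 (SE 0.13, adjusted p = 0.00273). In both genes the groups did not overlap.

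The other 5 tested genes were not called in total RNA. TUBA1B, the isotype with the highest level of the 9 tested, was at 529, 543 and 470 CPM in shCtrl and at 576, 639 and 606 CPM in shPRRC2B, with a log2 change of 0.24 (95% interval -0.19 to 0.67, adjusted p = 0.392 by edgeR). TUBA4A was at 4.38, 4.75 and 4.49 CPM in shCtrl and at 2.85, 3.04 and 3.06 CPM in shPRRC2B. Its groups did not overlap, and its log2 change of -0.60 missed the threshold (adjusted p = 0.0674), as did that of TUBB2A (0.62, adjusted p = 0.0998). TUBA4A was called lower under 11 of 23 alternatives of processing, among them each of the 6 fits without 1 polysome library, and TUBB2A was called higher under 5. TUBB2B differed by 0.01 (95% interval -0.55 to 0.58). TUBB3, with 5 to 22 counts in each total library, differed by 0.28 (95% interval -0.80 to 1.36).

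Counting by groups alone, 6 of the 9 genes had all shPRRC2B total libraries above all shCtrl libraries and 1, TUBA4A, had them below. Over all genes tested these shares were 34.1% above and 28.8% below.

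Polysome RNA was compared in the same way, to see which tubulin mRNAs changed in the pool bound by several ribosomes. Of 9 genes tested, TUBA1C and TUBB6 were called higher in shPRRC2B and TUBA4A was called lower, where 18.4% of all genes tested were called higher and 21.4% lower. The median log2 change of the 9 genes was 0.38, against -0.01 over all genes.

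TUBA1C was at 119, 197 and 187 CPM in shCtrl polysome RNA and at 354, 333 and 312 CPM in shPRRC2B, a log2 change of 0.99 (SE 0.15, adjusted p = 6.35e-05). TUBB6 was at 58.9, 60.2 and 51.9 CPM in shCtrl and at 112, 123 and 120 CPM in shPRRC2B, a log2 change of 1.05 (SE 0.11, adjusted p = 1.62e-06). For both genes the groups were apart and the change was of the same size as in total RNA.

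TUBA4A was at 7.77, 9.66 and 9.43 CPM in shCtrl polysome RNA and at 3.27, 5.83 and 3.23 CPM in shPRRC2B, a log2 change of -1.12 (SE 0.26, adjusted p = 0.00189). These values stood for 83 to 89 counts in shCtrl and 34 to 61 counts in shPRRC2B. It was the only tubulin gene tested that was lower in both fractions with groups that did not overlap.

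TUBA1A differed from the other called genes in polysome RNA. It was at 89.7, 131 and 111 CPM in shCtrl and at 101, 123 and 106 CPM in shPRRC2B, so the groups overlapped, and its log2 change was -0.01 (95% interval -0.29 to 0.28, adjusted p = 0.989 by edgeR). TUBB4B was at 221, 183 and 161 CPM in shCtrl and at 287, 222 and 233 CPM in shPRRC2B. Its log2 change of 0.39 had an adjusted p of 0.0260 and stayed below the fold threshold. The shPRRC2B libraries were all above the shCtrl libraries in 4 of the 9 genes (TUBA1C, TUBB3, TUBB4B and TUBB6) and below them in 1, TUBA4A, against 21.6% above and 21.5% below over all genes tested.

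TUBB3 was at 1.31, 0.98 and 0.33 CPM in shCtrl polysome RNA and at 1.81, 1.91 and 2.66 CPM in shPRRC2B, from 3 to 14 and 20 to 28 counts. The groups did not overlap, and the log2 change of 1.25 (95% interval 0.15 to 2.36) missed the threshold with an adjusted p of 0.0616 by edgeR. It was called higher under 3 of 22 alternatives, 1 of them without the shCtrl polysome replicate 1. TUBA1B (-0.08), TUBB2A (0.38) and TUBB2B (-0.43) were not called and their groups overlapped. TUBB2B varied widely between replicates, from 63.8 to 145 CPM in shCtrl and from 41.6 to 105 CPM in shPRRC2B, and it was called lower without the shCtrl polysome replicate 1 or without the shPRRC2B polysome replicate 2.

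**Figure D3:**
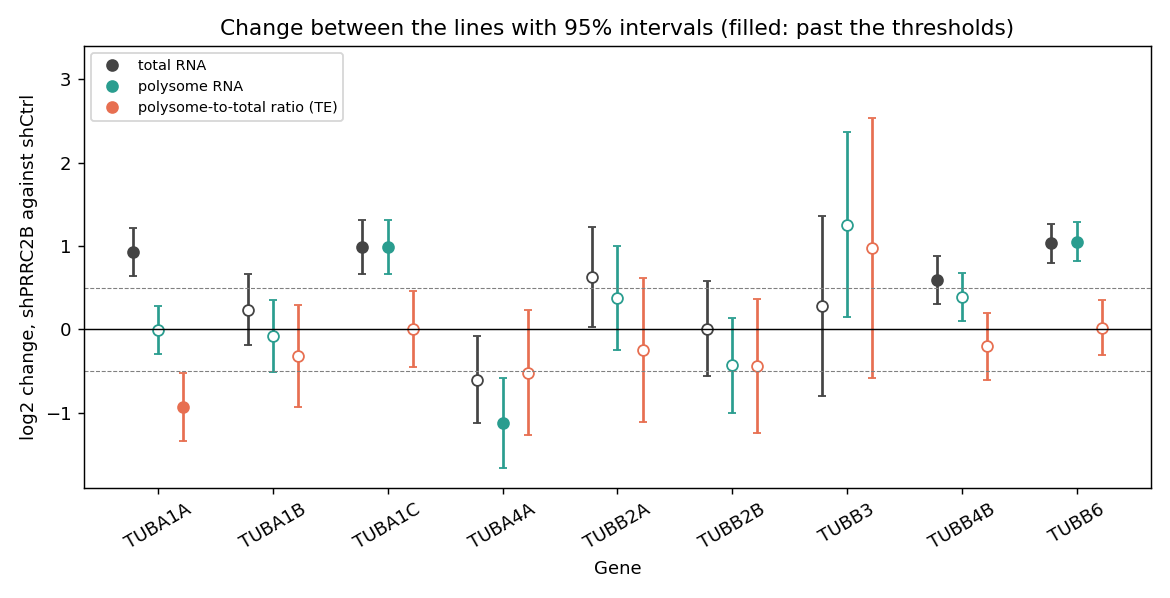
Log2 change between shPRRC2B and shCtrl in total RNA, polysome RNA and the polysome-to-total ratio for 9 tubulin genes, with 95% intervals. Filled points pass both thresholds, and dashed lines mark log2 changes of -0.5 and 0.5. TUBA1A is the only gene whose ratio passes them.

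Translation efficiency (TE), the ratio of polysome to total RNA, was compared between the lines and its change was tested as the interaction of line and fraction in the same fit. Only TUBA1A was called, with a lower TE in shPRRC2B, by a log2 change of -0.93 (SE 0.19, 95% interval -1.34 to -0.53, adjusted p = 0.00194). Of the 9 genes, 0 had a higher and 1 a lower TE, where 10.7% of all genes tested were called higher and 16.4% lower. TUBA1A was called in all 22 alternatives of processing, with log2 changes from -1.26 to -0.85. In the values above, its total RNA was higher in shPRRC2B while its polysome RNA overlapped between the lines. More RNA outside the polysomes and less ribosome loading per mRNA cannot be told apart in this ratio.

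TUBA1C and TUBB6 rose in both fractions, and their TE differed by 0.01 (95% interval -0.45 to 0.46) and 0.02 (95% interval -0.31 to 0.35). TUBA1B had a log2 TE change of -0.32 (95% interval -0.93 to 0.29), which reached -0.64 (adjusted p = 0.00299) without the shCtrl polysome replicate 1, where TUBA1B was at 371 CPM against 787 and 789 CPM in the other replicates. TUBB4B had -0.20 (95% interval -0.60 to 0.20) and was called lower in 2 of the fits that remove a trend with transcript length. TUBA4A (-0.52), TUBB2A (-0.25), TUBB2B (-0.44) and TUBB3 (0.97) had intervals that reached from below to above 0. The median log2 TE change of the 9 genes was -0.25, against -0.03 over all genes tested. Once a trend with transcript length had been taken out, the median of the tubulin genes became -0.60, against -0.04 over all genes in that fit.

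**Figure D4:**
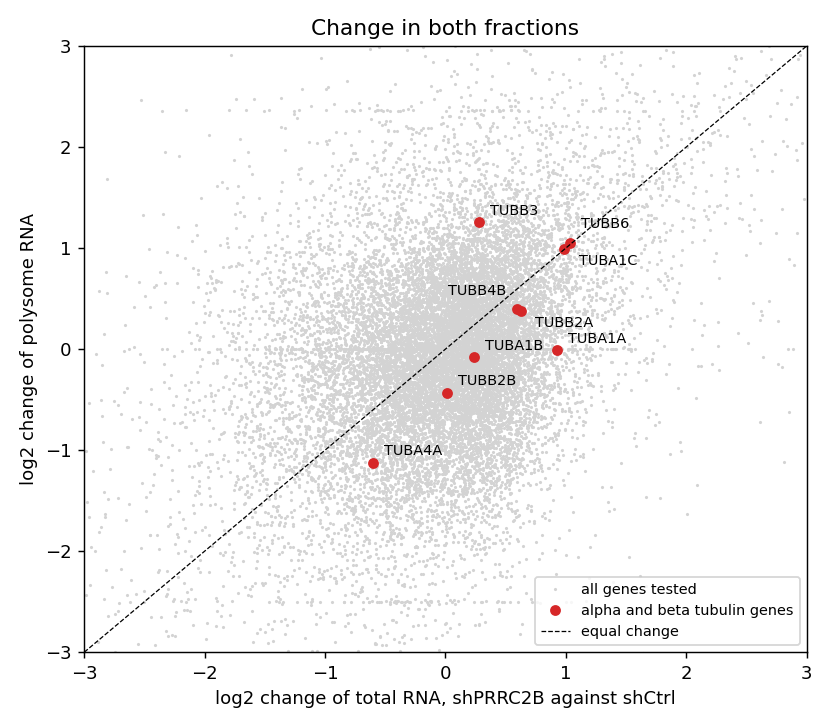
Log2 change of polysome RNA against that of total RNA, shPRRC2B against shCtrl, for the 9 tubulin genes (red) and all genes tested (grey), where the dashed line marks an equal change. TUBA1C and TUBB6 lie on the line and TUBA1A below it, and 996 of 18166 genes fall outside the axes.

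Within each line, polysome RNA was compared with total RNA to place the tubulin mRNAs among all mRNAs. These values depend on the scaling: the median of all genes was at -0.22 (log2, polysome against total, shCtrl) with TMM over all libraries and at -1.22 when the libraries were scaled by their totals, so the tubulin values are given relative to that median. In shCtrl, TUBB2B stood highest, 1.36 above the median of all genes on the log2 scale, followed by TUBA4A (1.20), TUBB3 (0.86) and TUBA1A (0.85), and TUBB4B stood lowest (-0.05). In shPRRC2B, TUBA1A stood at -0.09 relative to the median, at percentile 48.8 of all genes tested, against percentile 65.7 in shCtrl. Above the median stood 8 of 9 tubulin genes in shCtrl and 7 of 9 in shPRRC2B, and 3 and 2 of them once a trend with transcript length had been removed, but 7 and 5 of them where the merged exon length of the gene took the place of the transcript length. TUBA1C kept a like position in both lines, at percentile 64.2 in shCtrl and 61.0 in shPRRC2B.

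With TMM over all libraries, 4 of 9 tubulin genes were called higher in the polysome RNA of shCtrl (TUBA1A, TUBA1C, TUBA4A and TUBB2B) and 3 in that of shPRRC2B (TUBA1C, TUBB2B and TUBB3), and 0 were called lower. Over all genes, 32.5% were called higher and 39.8% lower in shCtrl, and 36.6% and 42.3% in shPRRC2B. Scaled by library totals, 0 tubulin genes were called higher in either line, and 4 were called lower in shCtrl and 5 in shPRRC2B. Under that scaling, 3211 of all 18166 genes tested were called higher and 10675 lower in shCtrl. In shPRRC2B these numbers were 4283 and 10204. Of all genes called in shCtrl, 45.0% were higher with TMM and 23.1% when scaled by totals, and in shPRRC2B 46.4% and 29.6%. The direction of polysome against total RNA is therefore not settled for these genes by the counts alone.

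The make-up of the tubulin pool was described by the share of each isotype in the summed level per kb of its family, with no test. In total RNA the share of TUBA1B in the alpha family was 78.6% ± 0.720 (SD, n = 3) in shCtrl and 69.5% ± 0.338 in shPRRC2B. That of TUBA1A was 10.7% ± 0.465 and 15.1% ± 0.537, and that of TUBA1C 10.2% ± 0.296 and 15.1% ± 0.844. The ranges of the lines did not overlap for any of these 3 genes. Shares within a family are linked, since they add up to the whole. The TUBA1B level itself was 316 CPM per kb in shCtrl total RNA and 373 in shPRRC2B total RNA. TUBA4A made up 0.552% ± 0.0359 and 0.271% ± 0.0087.

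In polysome RNA TUBA1C made up 11.5% ± 1.20 of the alpha family in shCtrl and 21.0% ± 1.90 in shPRRC2B, while TUBA1A made up 13.1% ± 2.95 and 11.6% ± 0.484. The shares of TUBA1C did not overlap between the lines and those of TUBA1A did. In shPRRC2B both genes held 15.1% of the alpha level in total RNA, while in polysome RNA the share of TUBA1C was above that of TUBA1A in all 3 libraries.

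The beta shares leave out what TUBB would add, since it is listed near 0, and hold only among the other 5 genes. They also leave out TUBB4A, a beta gene that is not among the genes described here. In total RNA TUBB4A had a mean of 26.0 CPM in shCtrl and 39.8 CPM in shPRRC2B, where TUBB2A had 22.5 and 34.7 CPM. TUBB4B made up 70.6% ± 1.76 of the beta family in shCtrl total RNA and 70.4% ± 0.480 in shPRRC2B. TUBB6 made up 10.9% ± 0.265 in shCtrl and 14.9% ± 0.517 in shPRRC2B in total RNA, and 13.8% ± 1.26 and 22.3% ± 1.12 in polysome RNA. TUBB2B made up 11.6% ± 0.838 and 7.76% ± 0.441 in total RNA. The shares of TUBB6 and, in total RNA, of TUBB2B did not overlap between the lines. The TUBB2B level itself was 24.0 CPM per kb in shCtrl total RNA and 24.3 in shPRRC2B total RNA.

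**Figure D5:**
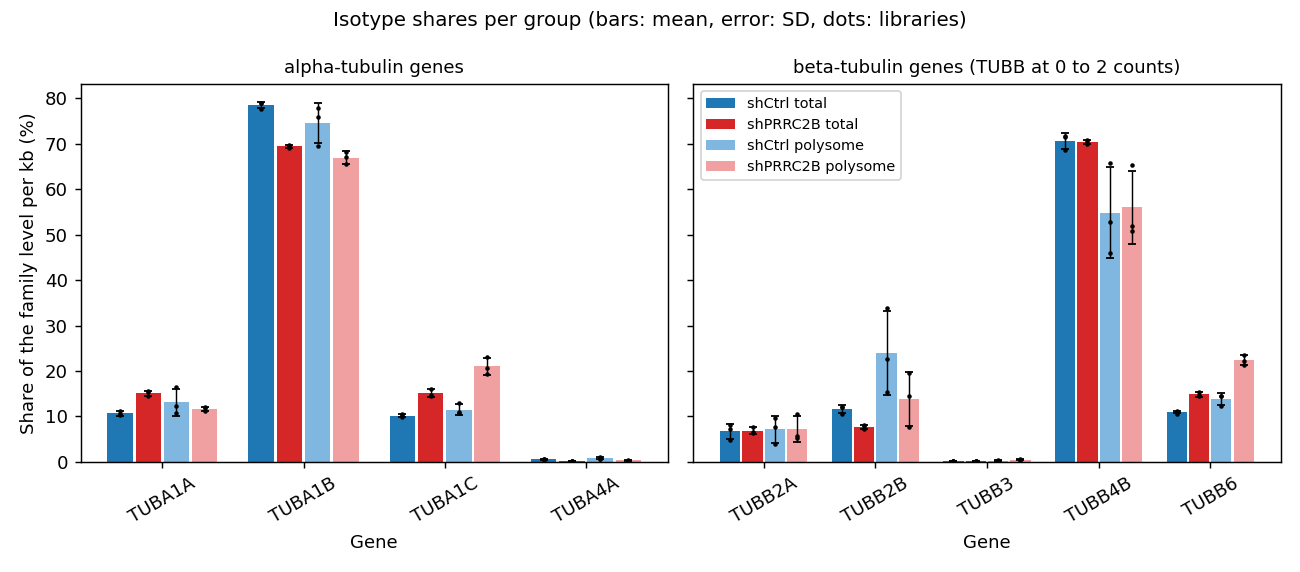
Share (%) of each isotype in the summed CPM per kb of its family, as the mean of 3 libraries with SD bars and 1 dot per library. TUBA1C and TUBB6 have larger shares in shPRRC2B than in shCtrl in both fractions, and TUBA1B has the largest alpha share in every group.

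Summed over the 10 genes, tubulin mRNA was at 981 to 1090 CPM in shCtrl total RNA and at 1460 to 1544 CPM in shPRRC2B total RNA, with no overlap. In polysome RNA it was at 947 to 1499 CPM in shCtrl and at 1490 to 1619 CPM in shPRRC2B, and the ranges met. The ratio of the alpha to the beta level per kb, without TUBB and TUBB4A, was 1.94 ± 0.0680 in shCtrl total RNA and 1.72 ± 0.0966 in shPRRC2B total RNA. In polysome RNA it was 2.39 ± 0.756 and 2.00 ± 0.174.

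The genes that act on tubulin mRNA and protein were taken from lists fixed by name. TTC5 was at 16.7 to 20.1 CPM in shCtrl total RNA and 21.7 to 25.3 CPM in shPRRC2B, with a log2 change of 0.35 (95% interval -0.04 to 0.74). It was not called in either fraction or in TE, and neither were SCAPER and CNOT11, the CCR4-NOT subunit that SCAPER binds. Of the 12 genes of autoregulation and CCR4-NOT, 0 had a higher and 4 a lower TE in shPRRC2B, where 10.7% of all genes tested were higher and 16.4% lower. They were CNOT1, the scaffold of the complex (log2 -1.67), the deadenylases CNOT6L (-1.48) and CNOT6 (-0.98), and CNOT9 (-0.77). With the length trend removed, 1 of the 12 had a higher and 2 a lower TE, close to the shares of 9.33% and 12.6% over all genes in that fit.

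Of 25 tested genes of microtubule dynamics, 14 had a lower TE in shPRRC2B and 0 a higher, against 16.4% and 10.7% of all genes tested. Their median log2 change was -0.75, against -0.03 over all genes. The largest changes among those called were in MAP1A (-2.40) and MAP1B (-2.11), which bind along microtubules in neurons, in CLASP1 (-1.95), which stabilises growing ends, and in the severing enzyme FIGN (-1.81). In shPRRC2B polysome RNA, MAP1A was at 0.96 to 2.49 CPM and MAP1B at 2.28 to 9.20 CPM. CLASP1 was at 0.86 to 3.92 CPM there and FIGN at 1.81 to 3.42 CPM. In total RNA the mean of MAP1A was 12.3 CPM in shCtrl and 41.2 CPM in shPRRC2B, and that of MAP1B 76.2 and 145 CPM. For CLASP1 these means were 64.5 and 88.8 CPM, and for FIGN 20.6 and 26.2 CPM. With the length trend removed, 11 of the 25 were called lower, where 12.6% of all genes were, and the median was -0.62.

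The other lists held calls in both directions, beside 10.7% higher and 16.4% lower over all genes tested, and are given as a description. Of 12 tested genes of tubulin folding, the cofactor TBCA (log2 TE change 0.74) and ARL2 (0.71) had a higher and TBCEL (-1.65) a lower TE. Of 18 tubulin-modifying genes, 3 had a higher TE, among them AGBL3 (1.28), a deglutamylase, and 4 a lower TE, among them TTLL4 (-1.12) and TTLL7 (-0.84), which add glutamate to tubulin. TTLL11 (0.99), another such enzyme, was higher. A further list held 12 genes of the gamma-tubulin ring complex, which nucleates microtubules, and of its anchors. There MZT2B (1.32) and MZT2A (0.84) were higher and AKAP9 (-1.47), an anchor, and TUBGCP4 (-0.72) lower. Of 8 tested other tubulin genes, TUBE1 (epsilon-tubulin) had a higher TE (0.91) and TUBB4A a lower TE (-1.70).

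With the length trend removed, the folding genes had 0 higher and 1 lower and the modifying genes 4 and 1. The genes of the ring complex and its anchors had 2 and 0. Over all genes in that fit, 9.33% were called higher and 12.6% lower.

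Tubulin pseudogenes also took counts. Of 51 alpha and beta tubulin pseudogene names in the table, 20 had a count and 9 reached 10 counts in a library, and together they made up 2.90% ± 0.0411 (SD, n = 3) of tubulin counts in shCtrl total RNA, 4.30% ± 1.15 in shCtrl polysome RNA, 2.80% ± 0.261 in shPRRC2B total RNA and 4.07% ± 0.178 in shPRRC2B polysome RNA. TUBBP1, a processed copy of TUBB, was at 142 to 343 counts in shCtrl total RNA and 515 to 665 in shPRRC2B total RNA, where TUBB itself was at 0 to 2. Its level was 9.81 to 12.9 CPM and 21.8 to 29.1 CPM there. In polysome RNA it was at 7.40 to 12.9 CPM and 8.28 to 9.17 CPM, and its TE was lower in shPRRC2B by a log2 change of -1.39 (adjusted p = 0.00177 by edgeR). Whether the TUBBP1 counts hold read pairs of TUBB was not tested. Another pseudogene, TUBA5P, went the other way, with a log2 TE change of 0.88 (adjusted p = 0.0167 by edgeR).

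Over the 12 libraries, the genes whose CPM followed the summed tubulin CPM most closely were LAP3 (Pearson's r 0.942), ATIC (0.934), ERGIC1 (0.932), ANXA7 (0.923) and ACP2 (0.918), out of 10032 genes whose mean reached 10 CPM. The 12 points fall into 4 groups and share their libraries and scaling, so these values are a description. Among the tubulin genes themselves, the correlation with the sum they are part of ran from 0.899 for TUBA1C to -0.17 for TUBA4A.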

How the data were processed

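The authors deposited raw counts, which are whole numbers of pairs for each gene name in each library. According to the labels and methods, Trimmomatic 0.36 trimmed the reads, HISAT2 2.1.0 placed them on GRCh38 (the version in the submitters' processing notes), and featureCounts of Subread 2.0.1 counted them on GENCODE 38 gene names, with no strand option and leaving out pairs that map to several places or fit several genes. The table also holds 5 empty columns that name no sample, with 0 values. Samples were grouped by the line and fraction in their titles.

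Here genes were kept by edgeR's filterByExpr (version 4.0.16, R 4.3.3, minimum count 10, 4 groups), which left 18166 of 59385 names, 36618 of which had a count. Library sizes were scaled by TMM over the 12 libraries. A single glmQLFit over all libraries, without a block, and glmQLFTest gave each comparison. Benjamini-Hochberg adjustment ran over every gene in the fit, and a call needed both an adjusted p below 0.05 and a change beyond 0.5 on the log2 scale. The SE was the log2 change divided by the root of F. Levels per kb used the canonical GENCODE 44 transcript length, and sequences were credited to GENCODE 44 on GRCh38. The p-values measure the spread between cultures of 1 clone per hairpin.

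The tubulin genes and all lists were chosen with earlier results of these data known. The text names all 10 tubulin genes, PRRC2B, TTC5, SCAPER and CNOT11, at most 4 genes per list with the largest called TE changes, the 5 genes most like the summed level, and pseudogenes by name. ATAT1, PFDN6, HLA-C, TUBBP1 and TUBA5P were singled out after their values were seen. The markers were fixed by name. All 7 HEK293T markers (VIM, NEFL, NEFM, PAX2, EYA1, KRT8 and KRT18) had at least 20 counts in every library. Of the other types COL1A1 had 27 to 869 counts and DCN at most 15. Alternatives were DESeq2 1.42.0, other scalings and filters, a replicate block, removal of a trend with transcript length, each library left out, and the libraries of 1 fraction alone. A sequence stretch of the alpha genes is not reported here.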

Additional observations from a re-analysis of the deposited data

Results flagged for a closer look

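Of the 9 isotype genes tested, only TUBA1A was called in polysome-to-total ratio between the shCtrl and shPRRC2B lines by the test of the interaction. Its log2 difference was -0.93 (adjusted p = 0.00194 by edgeR). Over all genes tested, 10.7% were called higher and 16.4% lower. The other 8 isotype genes missed the thresholds, which does not show that their ratios were equal. Of the other tubulin genes, TUBB4A was called lower in TE (log2 -1.70) and TUBE1 higher. Polysome RNA of TUBA1A was 1.54 times total RNA in shCtrl and 0.807 times total RNA in shPRRC2B with TMM over all libraries. These 2 folds depend on the scaling, and the log2 values were -0.38 in shCtrl and -1.26 in shPRRC2B when the libraries were scaled by their totals. The transcript of TUBA1A shares 31.2% of its 75-base stretches with another place on the main chromosomes. The part of this in the difference was not tested. Groups of 3 libraries are too small for a test of single outlying libraries, so none was made.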

How the results depend on the processing

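The calls of TUBA1A, TUBA1C, TUBB4B and TUBB6 in total RNA, of TUBA1C, TUBB6 and TUBA4A in polysome RNA and of TUBA1A in TE held in every alternative run. The knockdown of PRRC2B also held in both fractions, while its TE difference ran from -0.15 to 0.30 when single libraries were left out and was 0.92 in both length trend fits. The cause was not tested for any of the changes given here. The number of tubulin genes with a lower TE was 2 instead of 1 with the length trend removed together with the replicate block and with a trend by merged exon length (TUBB4B), and ran from 1 to 2 when single libraries were left out (TUBA1B). The number lower in total RNA was 1 instead of 0 under DESeq2, scaling by total counts, a minimum of 10 counts in every library, the merged exon length trend and a fit to the 6 total libraries, and 0 to 1 when single libraries were left out. The number lower in polysome RNA was 2 instead of 1 with every gene with a count, with the length trend removed and with that and the block, and 1 to 2 when single libraries were left out.

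The comparison of polysome with total RNA within a line changed most. In shCtrl the number higher was 0 under scaling by total counts, TMM within each fraction and both length trend fits, 2 with every gene with a count, and 2 to 5 when single libraries were left out, with 2 without the shCtrl polysome replicate 2. The number lower in shCtrl was 4 when libraries were scaled by their totals or by TMM inside a fraction, 3 in both length trend fits and 1 with merged exon length. In shPRRC2B the number higher was 0 under the same 4 alternatives and 1 to 3 when single libraries were left out, with 1 without the total replicate 3 or the polysome replicate 2. The number lower was 5 under scaling by total counts and in both length trend fits, 4 under TMM within each fraction, 3 with merged exon length, 1 with every gene with a count and 0 to 1 when single libraries were left out. Relative to the median of all genes, TUBA1A in shCtrl was at -0.39 in both length trend fits, TUBB2B in shPRRC2B at -0.30 and -0.36 in them, and TUBB4B in shCtrl at 0.14 with every gene with a count and from -0.14 to 0.087 when single libraries were left out. TUBA1A in shPRRC2B was at -1.62 and -1.61 in the length trend fits and -0.51 with merged exon length, and ran from -0.16 to 0.008 when single libraries were left out.

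Values near 0 changed sign. TUBA1A in polysome RNA was at 0.013 under TMM within each fraction, 0.040 with 10 counts in every library, 0.0007 with the replicate block and -0.23 to 0.030 when single libraries were left out. The TE change of TUBA1C was -0.0091 under DESeq2, RLE scaling and the length trend, -0.039 with every gene with a count and -0.23 to 0.089 when single libraries were left out. That of TUBB6 was -0.0005 under RLE scaling, -0.032 with every gene with a count, -0.2444 and -0.2449 in the length trend fits and -0.10 to 0.060 when single libraries were left out. TUBB2B in total RNA was at -0.061 under scaling by total counts, -0.033 under TMM within each fraction, -0.027 with every gene with a count, -0.010 with 10 counts in every library, -0.025 with merged exon length, -0.037 in the 6 total libraries and -0.073 to 0.060 when single libraries were left out. TUBB2A in polysome RNA ran from -0.093 to 0.57. The alpha-to-beta ratio was 2.08 in shCtrl total RNA, 1.90 in shPRRC2B total RNA and 2.23 in shPRRC2B polysome RNA without division by length, and 2.05, 1.88 and 2.20 with coding length.

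Same-numbered libraries of different groups did not deviate together, with correlations of their deviations from the group means from -0.11 to 0.098 over 18 pairs, so the numbers were not taken to pair samples. With the replicate block, 1812 genes had a higher and 2807 a lower TE, against 1935 and 2981 without it, and TUBB2A was added to the calls in total RNA (log2 0.66, adjusted p = 0.0358 by edgeR). Counts of all genes moved by over 1.5 times for a higher TE, to 1285 without the shCtrl total replicate 2, and for a lower TE, to 1984 with the length trend removed and 1830 with that and the block. In shCtrl polysome against total RNA, 3211 genes were higher when scaled by totals and 3189 with TMM inside each fraction, against 5906, and in shPRRC2B 4283 and 4296, against 6655. The merged exon length was chosen after seeing the data. Depth limits TUBB3 and TUBA4A, and TUBB had too few counts for any test.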
